A study of Mus musculus with 78 samples.

Results

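The early messenger RNA response of engineered mouse cartilage to interleukin-1beta (IL-1beta) was read from 6 of the series' 78 samples. These are the 3 mRNA libraries of cartilage given 1 ng/mL IL-1beta for 4 h and the 3 of untreated cartilage collected at the same 4 h. They were taken by their labels for cytokine and time, with no measured value used. Both groups were tissue-engineered cartilage made from chondrocytes that had been differentiated from murine induced pluripotent stem cells, and carried no other agent. The whole series has 39 mRNA and 39 miRNA libraries in 13 groups: controls at 0, 4, 12, 24 and 72 h, and IL-1beta at 1 ng/mL or TNF-alpha at 20 ng/mL for 4, 12, 24 and 72 h. The labels letter the libraries of a group a, b and c and do not say whether these came from separate cultures. P-values therefore measure the spread between libraries of a group, which may be technical. That spread was estimated jointly over 38 mRNA libraries of the series, not over the 6 alone.

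IL-1beta binds IL-1 receptor type 1 and its accessory protein, which recruit MyD88 and IRAK kinases and through them the IKK complex and MAP kinases. IKK marks IkappaB proteins for destruction, and this frees NF-kappaB dimers to enter the nucleus, where many of their first targets are chemokines, cytokines and inhibitors of the same pathway. In joint cartilage the cytokine is known for raising proteases that cut aggrecan and type II collagen, and for raising nitric oxide and prostaglandin E2 synthesis, which is why it serves as a model of the inflamed joint.

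The 3 control libraries held 50491521, 29215135 and 33344424 counts on named genes and the 3 IL-1beta libraries 20198456, 68655350 and 13919485. Within each group log2 values of the libraries correlated at 0.997 to 0.999 across genes. IL-1beta library a stood somewhat apart from b and c: 25.6% of its counts fell on 10 genes (21.8% to 22.7% in the other 5) and 0.203% on mitochondrial genes (0.324% to 0.399%). Several results below are given with and without it. The cartilage label held against its markers. All 8 chondrocyte markers, Col2a1, Col9a1, Col11a2, Acan, Matn3, Comp, Sox9 and Hapln1, were well above the filter and none was called, and their summed level was 111800 to 116300 counts per 1000000 (CPM) in controls and 113500 to 155700 CPM with IL-1beta. Of 12 leukocyte and macrophage markers only 4 reached the filter on low counts, none was called, and their sum was 19.7 to 22.5 and 14.6 to 25 CPM. In bulk RNA fewer cells of a type and less RNA per cell cannot be told apart.

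IL-1beta changed many transcripts within 4 h, and the largest changes were upward. Of 18857 genes tested, 2920 (15.5%) were higher and 3239 (17.2%) lower at an adjusted p under 0.05 (edgeR's quasi-likelihood F test, Benjamini-Hochberg adjustment over all genes tested; such genes are said below to have risen or fallen). At least 2-fold changes numbered 644 upward (3.42%) and 499 downward (2.65%). All 3 treated libraries lay above all 3 controls for 3703 genes (19.6%) and below them for 4250 (22.5%). Counts of list members that rose or fell are to be read below beside the 15.5% and 17.2% of all genes tested. The median log2 fold change of all tested genes was -0.03, the level beside which the medians of gene lists below are to be read. With libraries scaled by their totals alone that median moved by -0.101 and the split became 1943 higher and 4890 lower, so the directions of small changes hold relative to the scaling. Fold changes below are log2 values with their standard errors, and levels are CPM scaled by TMM factors.

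**Figure D1:**
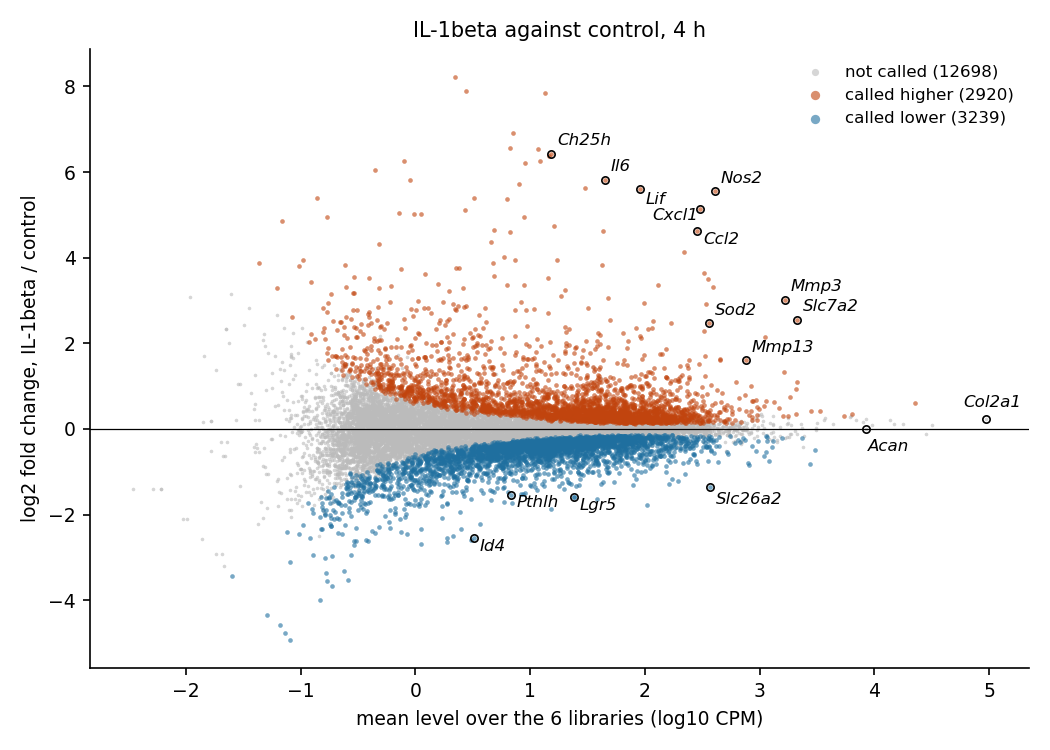
Each of the 18857 tested genes is a point, placed by its mean level over the 6 libraries (horizontal axis, log10 CPM) and its log2 fold change of IL-1beta over control at 4 h (vertical axis); colours mark the 2920 genes called higher, the 3239 called lower and the rest. Ch25h, Il6, Lif and Nos2 lie between 5 and 7 on the log2 scale, Id4 is the lowest of the labelled genes, and Acan and Col2a1 lie near 0 at high levels.

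Chemokines were among the genes that rose most, and 3 of the 15 largest rises were theirs (Ccl20, Cxcl2 and Cxcl10). Of 13 tested CXC and CX3C chemokines 8 rose and none fell (median 1.94), and of 10 CC chemokines 4 rose and none fell. Cxcl1, a neutrophil attractant, stood at 15.5, 17.4 and 17.6 CPM in control libraries a, b and c and 593, 639.9 and 541 CPM in IL-1beta libraries a, b and c, a rise of 5.14 ± 0.18, adjusted p = 6.2e-22. Its neighbour Cxcl2 went from 0.250, 0.474 and 0.371 to 30.8, 32.9 and 22.3 CPM (6.37 ± 0.27, adjusted p = 1.16e-19). For both genes every treated library lay far above every control. Cxcl5, the third of these neutrophil attractants, started higher, at 90.4, 68.0 and 81.9 CPM, and reached 516, 777 and 514 CPM (2.91 ± 0.20). Ccl2, which draws monocytes, rose from 25.9, 21.6 and 19.5 to 450.3, 627 and 574 CPM (4.62 ± 0.20, adjusted p = 1.85e-19), and its relative Ccl7 by 2.36 ± 0.16. Ccl20, the ligand of CCR6 on Th17 and B cells, was scarcely present in controls, at 0.0625, 0.182 and 0.124 CPM, and stood at 19.7, 31.6 and 29.0 CPM with IL-1beta (7.85 ± 0.52, adjusted p = 2.67e-14). Cxcl3 rose by 5.12 ± 0.37 and Ccl5 by 4.94 ± 0.39, and the membrane-bound chemokines Cx3cl1 and Cxcl16 by 1.94 ± 0.22 and 1.09 ± 0.14. The response did not extend to all of the family: Cxcl12, the CXCR4 ligand, stood at -0.20 (adjusted p = 0.62) and Cxcl14 at 0.53 (adjusted p = 0.206). The interferon-linked Cxcl10 rose by 6.20 ± 0.87, but its treated libraries were uneven, at 10.3, 30.9 and 12.1 CPM, and its value was 5.45 without IL-1beta library b and 6.98 without control library c. Cxcl9 (2.91) lost its call without IL-1beta library b.

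**Figure D2:**
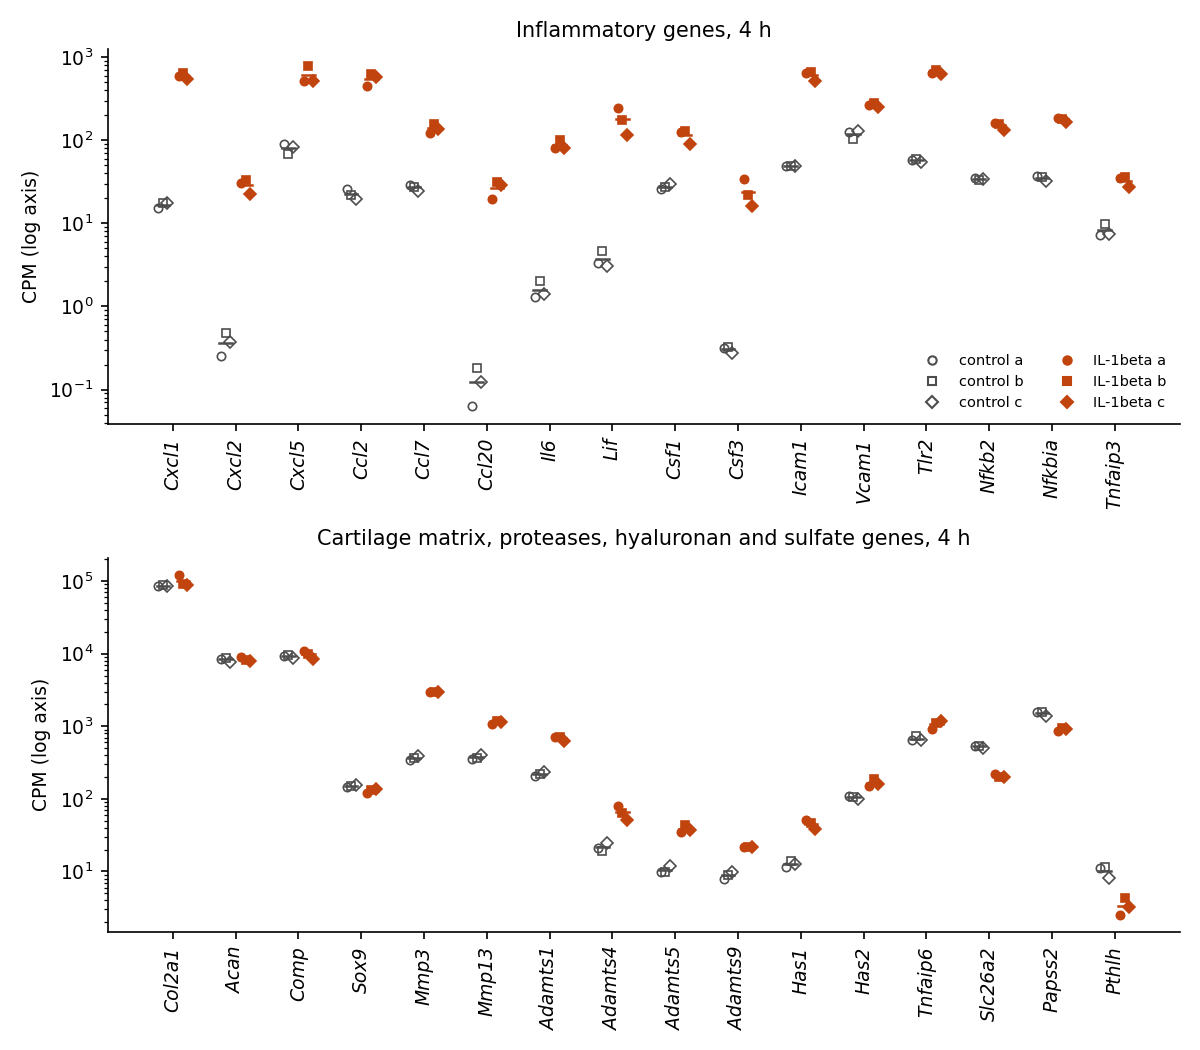
Levels of 16 inflammatory genes (top) and 16 cartilage, protease, hyaluronan and sulfate genes (bottom) in each library at 4 h, on a log axis of CPM; open grey symbols are controls, filled symbols IL-1beta, the shape gives the library letter and the bar the mean of 3. The treated libraries of all 16 inflammatory genes lie above their controls. Those of Acan and Comp overlap theirs, and those of Sox9 lie close to but all below theirs.

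Several members of the IL-6 family rose too, as did most of the tested colony-stimulating and other haematopoietic cytokines. Of 12 tested members of the IL-6 family and its receptors 5 rose and 1 fell (median 0.05), and of 10 colony-stimulating and other haematopoietic cytokines 7 rose and 2 fell (median 1.67). The fall in the first list was lost without control library a or c or IL-1beta library b or c, and both in the second without control library a or c or IL-1beta library a or c. Il6 stood at 1.31, 2.04 and 1.42 CPM in control libraries a, b and c and 80.2, 101 and 81.4 CPM in IL-1beta libraries a, b and c (5.82 ± 0.22, adjusted p = 3.51e-21). Lif, leukaemia inhibitory factor, went from 3.33, 4.70 and 3.06 to 244, 174 and 115 CPM (5.61 ± 0.24, adjusted p = 1.56e-19). The groups were far apart for both genes. The shared receptor chain of the family, Il6st (gp130), rose by 0.83 ± 0.07 and the oncostatin M receptor Osmr by 1.17 ± 0.07, whereas Il11 did not pass the test (0.08, adjusted p = 0.767), nor did the IL-6 receptor Il6ra (-0.10, adjusted p = 0.668). Csf3, which drives granulocyte production, rose from 0.313, 0.328 and 0.278 to 33.8, 21.9 and 16.2 CPM (6.27 ± 0.40, adjusted p = 7.8e-15). Csf1, the macrophage growth factor, rose from 25.6, 27.5 and 29.9 to 126, 128 and 90.4 CPM (2.06 ± 0.12), and Il34, the other ligand of its receptor, by 0.71 ± 0.14. Csf2 did not reach the filter and was not tested, with 44 counts over all 6 libraries. Of the remaining haematopoietic cytokines Il19, an IL-10 relative, rose by 4.00 ± 0.32, Tslp by 2.79 ± 0.64 and Il7 by 1.27 ± 0.14, and Il12b, the p40 chain of IL-12 and IL-23, rose by 3.33 ± 0.47 from a low level of 0.104, 0.146 and 0.0618 CPM. Downstream of these receptors, 12 of 22 tested SOCS, JAK, STAT and PIM genes rose and 1 fell (none without any 1 of the libraries but IL-1beta a). The feedback inhibitor Socs3 led them (63.9, 65.9 and 66.0 to 214, 240.5 and 199 CPM, 1.74 ± 0.11, adjusted p = 4.08e-15), followed by Socs2 (0.87 ± 0.11), Stat5a (0.82 ± 0.09), Jak2 (0.81 ± 0.08), the kinase Pim1 (0.75 ± 0.10) and Stat3 (0.60 ± 0.05).

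In the cytokine's own pathway several receptors and inhibitors rose. Of 19 tested members of the IL-1 family and its proximal signalling, 9 rose and 1 fell (none without control library a). Il1rl1, which encodes the IL-33 receptor ST2, stood at 3.5, 3.17 and 3.37 CPM in control libraries a, b and c and 77.9, 99.4 and 69.5 CPM in IL-1beta libraries a, b and c, a rise of 4.62 ± 0.21, adjusted p = 7.38e-19. Il1rn, the secreted receptor antagonist, rose by 2.93 ± 0.17, and Irak3, the inhibitory IRAK, by 2.02 ± 0.13. The signalling receptor Il1r1 rose by 0.81 ± 0.09, its accessory chain Il1rap by 0.97 ± 0.09, the adaptor Myd88 by 0.72 ± 0.08, Irak2 by 0.81 ± 0.07 and the IL-18 binding protein Il18bp by 0.60 ± 0.13. Several kinases and the ligase that carry the signal did not pass the test: Irak1 was at -0.04, Irak4 at -0.09, Traf6 at 0.08 and Map3k7 (TAK1) at 0.14, with adjusted p of 0.718, 0.392, 0.474 and 0.0631. The decoy receptor Il1r2 was at 0.03 (adjusted p = 0.953). The ligand genes themselves were too low to test, with 20 counts of Il1a and 4 of Il1b over all 6 libraries.

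NF-kappaB subunits and IkappaB proteins rose as a group: 11 of 16 tested members rose and none fell (median 0.93; 2 fell with totals scaling). Nfkbia, the IkappaBalpha inhibitor and a textbook NF-kappaB target, stood at 37.2, 35.7 and 32.4 CPM in control libraries a, b and c and 187, 179.6 and 168 CPM in IL-1beta libraries a, b and c (2.34 ± 0.09, adjusted p = 1.65e-20). Nfkb1, the p105/p50 subunit, went from 134, 128 and 126 to 353, 368 and 323 CPM (1.43 ± 0.06, adjusted p = 2.17e-20). Neither gene's groups overlapped. The other inhibitors Nfkbie and Nfkbib rose by 2.40 ± 0.19 and 0.76 ± 0.12, the nuclear IkappaB proteins Bcl3 and Nfkbiz by 1.39 ± 0.11 and 0.89 ± 0.09, and the subunits Relb, Nfkb2, Rel and Rela by 2.25 ± 0.09, 2.13 ± 0.10, 0.97 ± 0.14 and 0.61 ± 0.09. Of the kinases, the IKK relative Ikbke rose by 1.22 ± 0.10, while the 3 core IKK genes Chuk, Ikbkb and Ikbkg were at 0.13, 0.12 and -0.06, with adjusted p of 0.19, 0.274 and 0.364. Among ubiquitin regulators of the pathway 13 of 22 rose and none fell (2 fell with totals scaling). They included the deubiquitinase A20, Tnfaip3 (7.34, 9.80 and 7.54 to 35, 35.8 and 27.4 CPM, 2.02 ± 0.14, adjusted p = 8.85e-14), its partner Tnip1 (2.05 ± 0.12), the adaptors Traf1 (2.54 ± 0.22) and Traf2 (0.84 ± 0.08), the ligase Birc3 (1.67 ± 0.10) and the kinases Ripk2 (1.99 ± 0.16) and Map3k8 (0.97 ± 0.09). Tnip3 rose by 5.39 ± 0.25, and by 6.85 without control library a.

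The upstream sequence of these genes was read for the NF-kappaB motif. Of the 41 genes of the cytokine receptor, NF-kappaB, ubiquitin regulator, chemokine, IL-6, adhesion and nitric oxide lists that rose at least 2-fold, 29 had an entry in the RefSeq promoter table (GRCm38.p6), and 7 of these held the kappaB motif GGGANNTTCC on either strand within 250 bases before the start. Windows of 100 bases around the motif are printed below 5′ to 3′ on the gene's strand, with the motif in capitals, so that its letters can be compared between genes.
Cxcl2 (chr5:90903758-90903857, plus strand): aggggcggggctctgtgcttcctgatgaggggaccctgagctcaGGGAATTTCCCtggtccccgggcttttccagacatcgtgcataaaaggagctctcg
Cxcl10 (chr5:92348994-92349093, minus strand): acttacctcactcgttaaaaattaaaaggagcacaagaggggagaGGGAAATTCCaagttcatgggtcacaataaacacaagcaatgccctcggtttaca
Il6 (chr5:30013014-30013113, plus strand): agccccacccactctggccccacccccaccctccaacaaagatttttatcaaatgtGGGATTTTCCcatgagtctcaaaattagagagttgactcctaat
Cxcl1 (chr5:90891130-90891229, plus strand): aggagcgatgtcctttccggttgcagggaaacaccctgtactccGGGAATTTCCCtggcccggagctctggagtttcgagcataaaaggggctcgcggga
Cxcl3 (chr5:90785984-90786083, plus strand): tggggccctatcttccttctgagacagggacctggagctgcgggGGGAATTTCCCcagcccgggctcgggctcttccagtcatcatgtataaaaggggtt
Nfkbia (chr12:55492648-55492747, minus strand): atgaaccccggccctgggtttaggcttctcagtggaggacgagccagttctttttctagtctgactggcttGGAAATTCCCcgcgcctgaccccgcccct
Nfkb2 (chr19:46305445-46305544, plus strand): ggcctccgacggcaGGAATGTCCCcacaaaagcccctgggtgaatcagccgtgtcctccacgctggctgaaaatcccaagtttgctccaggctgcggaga

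Cxcl1, Cxcl2 and Cxcl3, which lie on chromosome 5, carried the same 11 capital bases, which hold 1 match on each strand, overlapping. Their downstream match began 70, 96 and 72 bases before the start. The motif began 44 bases before the start of Il6, 29 before that of Nfkbia, 159 before that of Cxcl10 and 236 before that of Nfkb2, a gene with 3 listed starts. Over the 11853 tested genes with an entry, 1.4% held the motif. The share was 4.14% of 362 genes that rose at least 2-fold, 8.53% of 129 that rose at least 4-fold, 1.77% of 282 that fell at least 2-fold and 1.34% of 7586 that were not called. Among the smaller changes it was 1.52% of 1575 genes that rose under 2-fold and 0.977% of 2048 that fell under 2-fold. The AP-1 motif TGANTCA, which reads the same on both strands, was present in 6.03% of all, 14.4% of the genes at least 2-fold higher, 22.5% of those at least 4-fold higher and 6.74% of those at least 2-fold lower. It was present in 4.63% of the genes that rose under 2-fold and 5.81% of those that fell under 2-fold. The windows of Cxcl10, Il6 and Nfkb2 held 1 AP-1 motif each within the same 250 bases. These matches are a description of letters in a window, without a test.

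Members of the TNF superfamily, microbial sensors and adhesion molecules rose as well. Of 22 tested TNF superfamily ligands and receptors 12 rose and none fell; of 16 pattern recognition receptors 10 rose and 1 fell; of 12 leukocyte adhesion ligands 7 rose and 1 fell. With totals scaling 2 TNF superfamily genes fell; the fall among the sensors was lost without control library a or IL-1beta library c, and that among adhesion ligands without control library a or b or IL-1beta library a. Tlr2, the receptor for bacterial lipopeptides, stood at 58.4, 59.2 and 55.1 CPM in control libraries a, b and c and 636, 698 and 619 CPM in IL-1beta libraries a, b and c (3.5 ± 0.10, adjusted p = 1.99e-24). The sensor Nod2 rose by 2.10 ± 0.15, the pentraxin Ptx3 by 2.48 ± 0.36, the lipopolysaccharide co-receptor Cd14 by 0.96 ± 0.10 and Tlr4 by 0.55 ± 0.09. Tlr3 was at -0.11 (adjusted p = 0.668). Icam1, which binds leukocyte integrins, went from 49.6, 48.9 and 49.1 to 651, 666 and 516 CPM (3.64 ± 0.10, adjusted p = 3.18e-24) and Vcam1 from 126, 104 and 128 to 269, 278 and 252 CPM (1.16 ± 0.15). The controls of Icam1 lay close together and its treated libraries far above them, and the groups did not overlap for Vcam1 either. E-selectin, Sele, rose by 4.65 ± 0.26 and the hyaluronan receptor Cd44 by 1.48 ± 0.08. Among TNF relatives Tnfsf15 rose by 3.37 ± 0.22, Cd40 by 1.97 ± 0.18, the osteoclast factor RANKL, Tnfsf11, by 1.91 ± 0.21, the death receptor Fas by 1.76 ± 0.16 and the TNF receptor Tnfrsf1b by 0.78 ± 0.08. The main TNF receptor Tnfrsf1a was at 0.05 and the RANKL decoy osteoprotegerin, Tnfrsf11b, at -0.16 (adjusted p = 0.564 and 0.215). Tnf itself was almost absent from controls, with 3 counts over the 3 libraries against 178 with IL-1beta, a ratio of 70.1 with a 95% counting interval of 23.6 to 343. Nlrp3, the inflammasome sensor, went from 2 to 555 counts, a ratio of 328 (90.3 to 2712). Of 8 tested inflammasome and pyroptosis genes 4 rose, Nlrp3 among them, and 2 fell (3 to 4 and 1 to 3 under the alternatives). Casp4 rose by 1.40 ± 0.10 and the pore protein Gsdmd by 1.12 ± 0.21.

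Nitric oxide and prostaglandin genes rose at their inducible steps. Nos2, the inducible nitric oxide synthase, stood at 12.0, 25.4 and 14.2 CPM in control libraries a, b and c and 847, 824 and 711 CPM in IL-1beta libraries a, b and c (5.55 ± 0.23, adjusted p = 1.02e-19). Slc7a2, which imports its substrate arginine, went from 603, 612 and 633 to 3633, 3811 and 3372 CPM (2.55 ± 0.09, adjusted p = 1.94e-22), so that its share of all counts went from a mean of 0.0587% to 0.321%. Both genes were apart in all libraries. Gch1, which makes the cofactor tetrahydrobiopterin, rose by 1.92 ± 0.09, the mitochondrial arginase Arg2 by 3.29 ± 0.23 and the mitochondrial superoxide dismutase Sod2 by 2.47 ± 0.09, while the arginine resynthesis enzymes Ass1 and Asl were at 0.13 and -0.06 (adjusted p = 0.263 and 0.631). The NADPH oxidase Nox4 fell by 0.73 ± 0.09. In all 9 of 21 tested members of this list rose and 2 fell. Of 22 prostaglandin genes 12 rose and 2 fell. Ptgs2, the inducible cyclooxygenase, went from 88.1, 132 and 114 to 589.7, 595 and 436 CPM (2.28 ± 0.15, adjusted p = 2.1e-14), and the terminal prostaglandin E synthase Ptges from 66.9, 80.7 and 69.1 to 798, 723 and 620 CPM (3.31 ± 0.10, adjusted p = 3.18e-24). The phospholipase Pla2g4a, which frees arachidonic acid, rose by 1.04 ± 0.09, the prostaglandin importer Slco2a1 by 2.37 ± 0.25 and the receptors Ptger4 and Ptgir by 1.40 ± 0.15 and 2.84 ± 0.24. Hpgd, which inactivates prostaglandins, fell by 1.33 ± 0.17. The constitutive cyclooxygenase Ptgs1 was at -0.09 (adjusted p = 0.439).

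Of 16 tested acute-phase and antimicrobial genes 10 rose and none fell. Serum amyloid A3, Saa3, stood at 39.1, 44.6 and 28.7 CPM in control libraries a, b and c and 169.6, 179 and 232 CPM in IL-1beta libraries a, b and c (2.37 ± 0.34, adjusted p = 9.23e-07). Saa1 and Saa2 rose by 2.70 ± 0.32 and 3.94 ± 0.34, S100a8, a calcium-binding alarmin, by 2.81 ± 0.36 and the metalloreductase Steap4 by 2.16 ± 0.12. Of 19 complement genes 3 rose and 2 fell, beside 15.5% and 17.2% of all genes tested. Among them 6 rose without IL-1beta library a, and 1 fell without control library a or IL-1beta library b. C3 and Cfb, the components of the alternative pathway convertase, were at 1.09 ± 0.14 and 2.87 ± 0.38. Of 20 genes of class I antigen presentation 12 rose and none fell (8 rose without IL-1beta library b and 8 with totals scaling). The 12 included H2-Q4 (1.30 ± 0.21), the immunoproteasome subunits Psmb8 (1.07 ± 0.25) and Psmb10 (1.06 ± 0.19) and the peptide transporter Tap2 (0.57 ± 0.13). B2m was at -0.02 and H2-K1 at 0.25 (adjusted p = 0.938 and 0.107).

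Some interferon-related genes were even across the treated libraries and others were not. Of 23 tested interferon regulatory factors and interferon-inducible GTPases 12 rose and 2 fell (at most 1 fell with any 1 library left out). Without IL-1beta library b 8 of them rose. Gbp2, a guanylate-binding protein, stood at 5.50, 5.21 and 5.90 CPM in control libraries a, b and c and 75.8, 90.8 and 68.1 CPM in IL-1beta libraries a, b and c (3.83 ± 0.25, adjusted p = 1.53e-14), Gbp5 and Gbp6 rose by 3.96 ± 0.33 and 3.88 ± 0.37, and Irf1, the transcription factor, went from 8.07, 6.41 and 7.54 to 15.3, 15.3 and 12.8 CPM (0.98 ± 0.17, adjusted p = 2.15e-05). Of 24 type I interferon-stimulated genes 10 rose, against 3 without IL-1beta library b and 20 with no filter on low counts. In that library Ifit1, which binds viral RNA, stood at 56.2 CPM against 9.98 and 12.5 CPM in a and c and 1.92, 3.5 and 2.32 CPM in controls. Its fold change of 3.52 ± 0.84 became 2.18 without library b and was then not called. Rsad2 (viperin) kept its call, at 5.38 with and 3.72 without library b, and the adenosine diphosphate-ribosyltransferase Parp14 rose by 1.66 ± 0.36. Cmpk2 and Oasl1, at 2.87 and 1.95, lost their calls without library b, at 1.07 and 1.01. Ifit3 and Irf7 were at 0.33 and 0.97 (adjusted p = 0.649 and 0.262). No source used here says how library b differed from a and c, and its part in these calls beyond the values given was not tested.

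**Figure D3:**
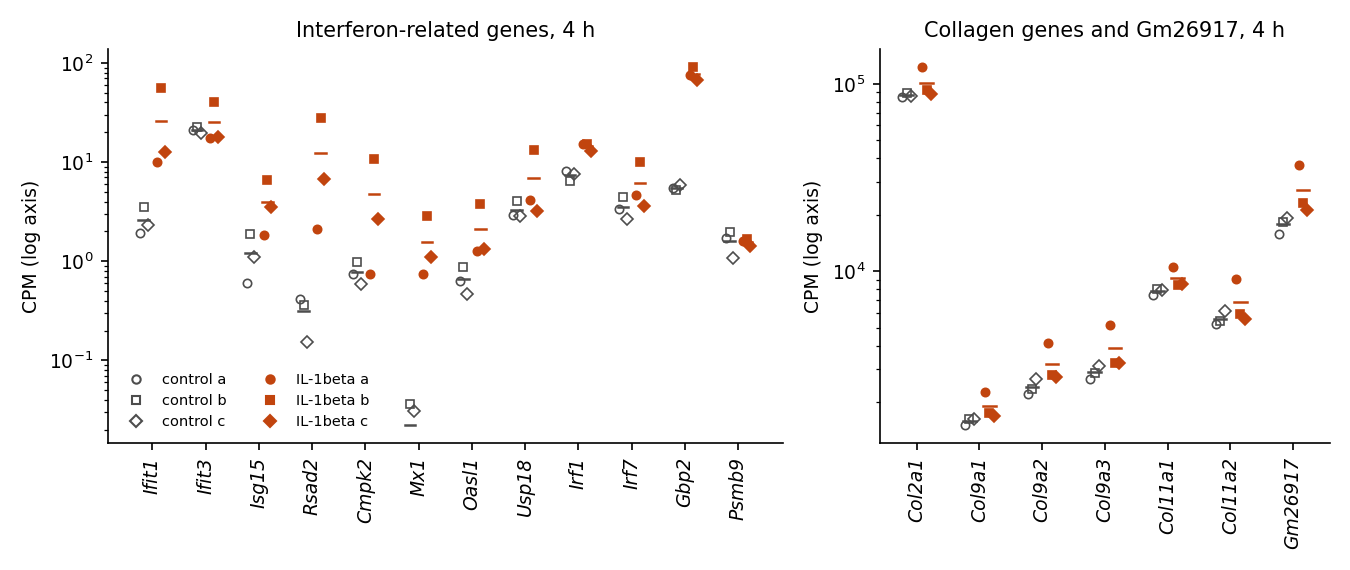
Levels by library at 4 h for 12 interferon-related genes (left) and for collagen genes and the noncoding RNA Gm26917 (right), on log axes of CPM, with symbols as in the plot of inflammatory genes; control a of Mx1 is 0 and is not drawn. IL-1beta library b (squares) is highest for Ifit1, Rsad2, Cmpk2 and Usp18, and IL-1beta library a (circles) for the collagens of cartilage and Gm26917.

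Transcription factors of the early response and its feedback phosphatases were next. Of 16 AP-1 and MAF factors 9 rose and 2 fell, of 27 other immediate early genes 18 rose and 1 fell (none without control library a or b or IL-1beta library b or c), and of 17 dual-specificity phosphatases, Sproutys and Spreds 12 rose and 1 fell. The AP-1 partner Batf stood at 0.896, 1.24 and 0.927 CPM in control libraries a, b and c and 5.96, 7.24 and 8.15 CPM in IL-1beta libraries a, b and c (2.82 ± 0.18, adjusted p = 1.8e-14), and Fosl1, Junb and Fosl2 rose by 1.46 ± 0.19, 1.02 ± 0.09 and 0.97 ± 0.08. Fos and Fosb, whose transcripts are known to peak and fade within the first hours of a stimulus, were at 0.00 and 0.28 (adjusted p = 0.987 and 0.318). The C/EBP factors Cebpb and Cebpd, which act with NF-kappaB on acute-phase and cytokine genes, went from 58.5, 66.4 and 61.5 to 206, 219 and 196 CPM (1.74 ± 0.16) and from 114, 128 and 117 to 347, 409 and 339 CPM (1.61 ± 0.13). Egr3 rose by 2.14 ± 0.30, whereas Egr2 and Myc did not pass the test (0.01 and 0.34, adjusted p = 0.974 and 0.134). The ERK phosphatases Dusp5 and Dusp6 rose by 1.48 ± 0.17 and 1.40 ± 0.13 and the ERK pathway inhibitor Spry4 by 1.11 ± 0.16. Of 15 genes that destabilise or stabilise inflammatory mRNAs 7 rose (4 with totals scaling) and 2 fell (none without control library a or IL-1beta library a, and 1 without control library c or IL-1beta library b or c). The RNase Regnase-1, Zc3h12a, which cuts Il6 mRNA, went from 10.6, 13.4 and 11.4 to 57.1, 47.6 and 42.5 CPM (2.06 ± 0.13, adjusted p = 6.51e-15), its opponent Arid5a rose by 1.02 ± 0.10 and Zfp36 (tristetraprolin) by 0.73 ± 0.14. Of 21 survival and death regulators 8 rose and 2 fell. Bid, a BH3-only protein, rose by 1.93 ± 0.10, the necroptosis effector Mlkl by 0.88 ± 0.15 and the survival protein Mcl1 by 0.37 ± 0.06, Bmf fell by 1.03 ± 0.10, and Bcl2 and Bcl2l1 were at -0.05 and 0.17 (adjusted p = 0.729 and 0.114).

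Proteases that cut cartilage matrix were already higher at 4 h. Of 18 tested matrix metalloproteinases 7 rose and 2 fell, and of 21 ADAMTS genes 6 rose and 3 fell. With totals scaling 5 and 6 fell, and with no filter on low counts 4 and 5. Mmp3 (stromelysin-1), which cleaves proteoglycans and activates other metalloproteinases, stood at 342, 369 and 392 CPM in control libraries a, b and c and 2981, 2942 and 2989 CPM in IL-1beta libraries a, b and c (3.02 ± 0.13, adjusted p = 4.83e-19). Mmp13, the main collagenase of type II collagen, went from 353, 366 and 402 to 1070, 1192 and 1138 CPM (1.6 ± 0.14, adjusted p = 2.44e-11). For both the treated libraries lay close together and far above the controls. Mmp10 (stromelysin-2) rose by 3.37 ± 0.29, the elastase Mmp12 by 3.57 ± 0.33, the gelatinase Mmp9 by 3.61 ± 0.44 and the rodent interstitial collagenases Mmp1a and Mmp1b by 5.02 ± 0.36 and 5.01 ± 0.36. The gelatinase Mmp2 and the membrane protease Mmp14 were at 0.14 and 0.11 (adjusted p = 0.26 and 0.442), and Mmp16 fell by 0.62 ± 0.07. The aggrecanases Adamts4 and Adamts5 went from 20.7, 19.4 and 24.5 to 80.5, 63.7 and 51.8 CPM (1.6 ± 0.18, adjusted p = 8.31e-09) and from 9.92, 9.98 and 12.0 to 35.2, 44.1 and 37.9 CPM (1.89 ± 0.15, adjusted p = 5.79e-12). Adamts1, which also cuts aggrecan and versican, went from 208, 217 and 232 to 706, 714 and 620.1 CPM (1.64 ± 0.12, adjusted p = 2.95e-13), and Adamts9 from 8.01, 8.82 and 9.92 to 21.6, 21.7 and 21.9 CPM (1.29 ± 0.13). Per kilobase of gene length the mean IL-1beta level of Adamts1 was 128 CPM, above those of Adamts4 (13.6), Adamts5 (4.83) and Adamts9 (1.44). Adamts15, a further aggrecan-cleaving member, went the other way, from 5.40, 1.97 and 3.37 to 0.688, 0.622 and 0.705 CPM (-2.49 ± 0.36, adjusted p = 1.07e-06).

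Protease inhibitors and the plasminogen system changed with the proteases, as 13 of 28 tested members rose and 3 fell (1 fell without IL-1beta library a, and likewise without control library a or b; 5 fell with totals scaling). The metalloproteinase inhibitor Timp1 went from 228, 248 and 188 to 603, 639 and 791 CPM (1.61 ± 0.16, adjusted p = 2.65e-10), while Timp2 and Timp3 were at -0.03 and -0.20 (adjusted p = 0.819 and 0.261). Plau (urokinase) and its receptor Plaur rose by 1.76 ± 0.11 and 1.18 ± 0.13, and the urokinase inhibitor Serpinb2 by 6.56 ± 0.37.

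Genes of the cartilage matrix itself had scarcely moved at this time. Of 32 tested cartilage matrix genes 4 rose and 2 fell, a share below that of all genes in both directions, with a median of -0.01. Acan, the core protein of aggrecan, stood at 8572, 8852 and 7808 CPM in control libraries a, b and c and 9149, 8141 and 7858 CPM in IL-1beta libraries a, b and c (-0.01 ± 0.13, adjusted p = 0.983), and Comp, cartilage oligomeric matrix protein, at 9326, 9495 and 8705 CPM in controls and 10930, 9999 and 8554 CPM with IL-1beta (0.10 ± 0.12, adjusted p = 0.582). The libraries of the 2 groups overlapped for both. Col2a1, type II collagen, stood at 85100, 88870 and 86070 CPM in controls and 122800, 92330 and 87930 CPM with IL-1beta (0.22 ± 0.17, adjusted p = 0.335). Libraries a and b lay above every control, a by much the more, and c among the controls. Col9a2 and Col9a3, type IX collagen chains, rose by 0.42 ± 0.17 and 0.42 ± 0.16 in the full comparison, but at 0.22 and 0.18 neither was called without IL-1beta library a, nor without control library a or b, nor with totals scaling (0.31 and 0.32). The link protein Hapln1, matrilin-1 (Matn1) and lubricin (Prg4) were at -0.25, -0.29 and 0.15 (adjusted p = 0.0838, 0.478 and 0.528). Of the small leucine-rich proteoglycans Omd and Ogn fell, from 265, 174 and 178 to 64.4, 135 and 105 CPM (-1.01 ± 0.24, adjusted p = 0.0014) and from 121, 82.7 and 94.5 to 34.7, 69.7 and 49.0 CPM (-0.94 ± 0.21, adjusted p = 0.000709), and Lum rose by 0.52 ± 0.10, while Dcn, Bgn, Fmod and Prelp were at 0.18, -0.03, -0.12 and -0.01 (adjusted p = 0.29, 0.879, 0.434 and 0.971). The list's counts were fragile, with 9 rises and 7 falls with no filter on low counts, 1 rise and 7 falls when libraries were scaled by totals alone, 1 rise without control library b and 2 without control library a, 4 falls without IL-1beta library c and 5 without control library c. Among 28 pericellular and fibrous matrix genes 6 rose and 3 fell. The rises ranged from 0 to 13 under the alternatives and the falls from 0 to 4. There were 4 rises without IL-1beta library a and 4 with totals scaling, but 11 without IL-1beta library c and 13 with no filter on low counts. Tenascin-C (Tnc) rose by 1.00 ± 0.13 and thrombospondin-1 (Thbs1) fell by 0.82 ± 0.10.

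**Figure D4:**
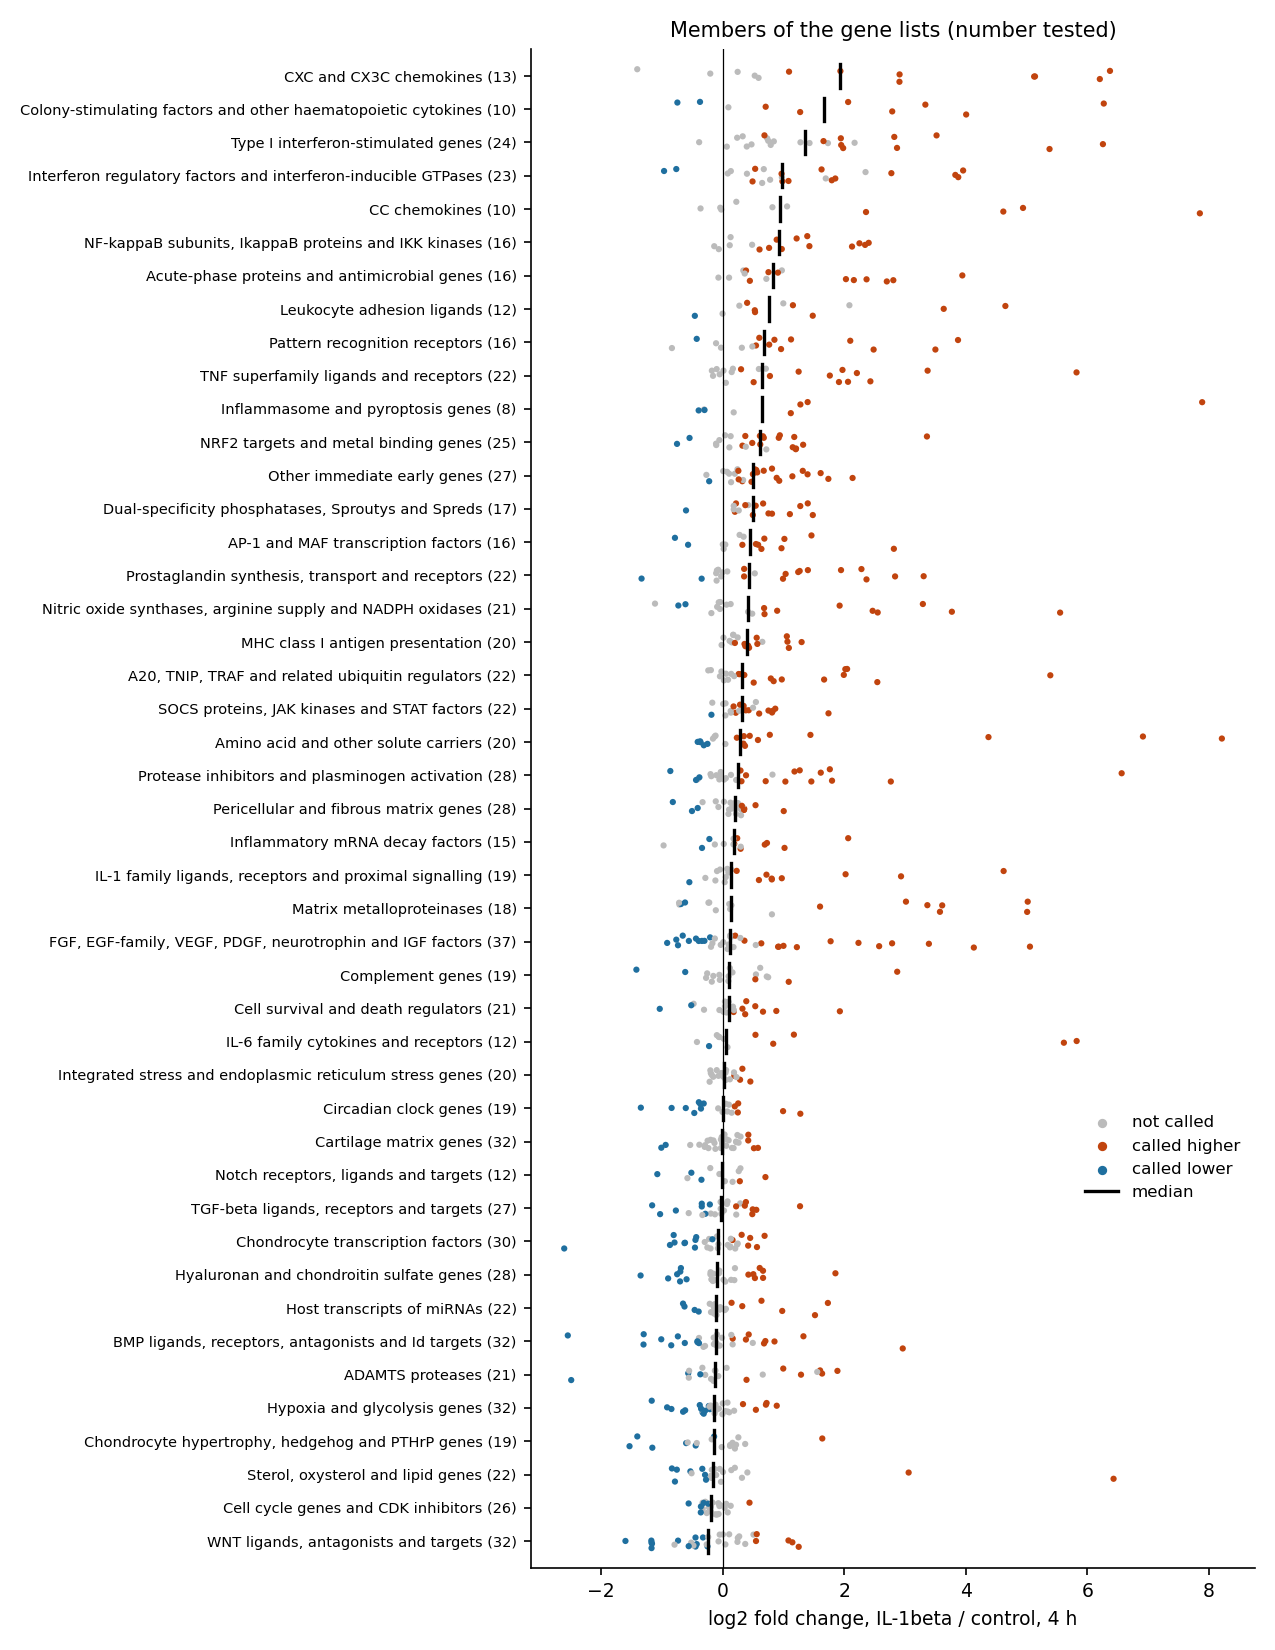
Log2 fold changes at 4 h of the tested members of 45 gene lists, 1 list per line with its number of tested members, ordered by the median (black bar); each point is a gene, coloured where called higher or lower. The lists of CXC chemokines, colony-stimulating factors and type I interferon-stimulated genes have the medians furthest to the right, while cartilage matrix genes lie around 0.

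Genes of sulfate supply and of hyaluronan synthesis had changed at 4 h. Of 28 tested hyaluronan and chondroitin sulfate genes 7 rose and 7 fell (13 fell with totals scaling). Slc26a2, the sulfate transporter whose loss causes chondrodysplasias, went from 544, 537 and 507 to 222, 201 and 200.3 CPM (-1.35 ± 0.12, adjusted p = 2.45e-11). Papss2, which makes the active sulfate donor in cartilage, went from 1593, 1588 and 1387 to 861, 944 and 915 CPM (-0.75 ± 0.13, adjusted p = 1.9e-05). Every treated library was below every control for both. Papss1 fell by 0.59 ± 0.06, the chondroitin sulfotransferase Chst3 by 0.70 ± 0.12 and the nucleotide-sugar transporter Slc35d1 by 0.69 ± 0.10. The chain synthase Chsy1, the sulfotransferase Chst11 and the xylosyltransferase Xylt1 were at -0.15, 0.19 and -0.18 (adjusted p = 0.0538, 0.0551 and 0.257). The hyaluronan synthases Has1 and Has2 rose, Has1 from 11.5, 13.7 and 12.8 to 51.0, 46.7 and 39 CPM (1.85 ± 0.13, adjusted p = 2.47e-13) and Has2 from 108, 106 and 101 to 151, 186 and 162 CPM (0.67 ± 0.08), while Has3 was at -0.06 (adjusted p = 0.823). Tnfaip6 (TSG-6), which cross-links hyaluronan, rose by 0.66 ± 0.18, and the hyaluronidase Hyal1 fell by 0.90 ± 0.12.

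Regulators of the chondrocyte state held both rises and falls. Of 30 chondrocyte transcription factors 6 rose and 10 fell, and of 19 hypertrophy, hedgehog and PTHrP genes 1 rose (2 without IL-1beta library a) and 6 fell. Sox9, the master factor of cartilage, stood at 148, 152 and 156 CPM in control libraries a, b and c and 121, 133 and 137 CPM in IL-1beta libraries a, b and c (-0.22 ± 0.10, adjusted p = 0.0769; -0.32 and called with totals scaling). Its partners went opposite ways, Sox6 at -0.43 ± 0.06 and Sox5 at 0.31 ± 0.06. Mef2c, a driver of hypertrophy, went from 37.4, 37.8 and 38.5 to 20.9, 23.1 and 21.2 CPM (-0.79 ± 0.09, adjusted p = 5.43e-09), and Wwp2, whose gene hosts miR-140, fell by 0.63 ± 0.09. Runx1 rose by 0.56 ± 0.08, while Runx2 was at 0.25 (adjusted p = 0.0722). The largest fall in this list was that of the zinc finger gene Zfp648, from 5.59, 5.43 and 4.95 to 0.459, 1.05 and 0.862 CPM (-2.60 ± 0.26, adjusted p = 6.54e-10). Zfp648 was also among the largest falls picked by size over all tested genes. Members of the list were chosen with earlier results of these data known. Its place among the 10 falls is therefore not independent of these data, and a role of Zfp648 in chondrocytes was not tested. Pthlh, parathyroid hormone-related protein, which delays hypertrophy, went from 11.1, 11.4 and 8.04 to 2.52, 4.26 and 3.29 CPM (-1.53 ± 0.17, adjusted p = 9.39e-09), and its receptor Pth1r fell by 0.60 ± 0.10. The hedgehog effector Gli2 fell by 1.16 ± 0.12, the receptor Ptch1 was at 0.12 and the hypertrophy collagen Col10a1 at -0.16 (adjusted p = 0.254 and 0.763). Ibsp, bone sialoprotein, rose by 1.64 ± 0.27.

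Growth factor pathways showed changes in both directions. In the BMP list 8 of 32 rose and 10 fell (16 fell with totals scaling), in the TGF-beta list 7 of 27 rose and 7 fell (4 without IL-1beta library c), and in the WNT list 5 of 32 rose and 12 fell. The rises of the WNT list were at about the 15.5% of all genes tested. The BMP target Id4 stood at 6.46, 4.45 and 5.75 CPM in control libraries a, b and c and 1.26, 0.983 and 0.470 CPM in IL-1beta libraries a, b and c (-2.55 ± 0.28, adjusted p = 3.81e-09), the pseudoreceptor Bambi fell by 1.30 ± 0.12 and the antagonist Nog by 1.01 ± 0.16. The more general BMP targets Id1 and Id3 were at -0.01 and -0.05 (adjusted p = 0.967 and 0.829). Among ligands Bmp2 rose by 1.33 ± 0.14 and the joint factor Gdf5 fell by 0.84 ± 0.11. Tgfb3 fell by 1.03 ± 0.09, Tgfb1 was at 0.29 (adjusted p = 0.0814) and the SMAD corepressor Tgif1 rose by 1.27 ± 0.06. In the WNT list Lgr5, an R-spondin receptor, went from 36.8, 33.6 and 38.3 to 9.40, 12.9 and 13.4 CPM (-1.6 ± 0.15, adjusted p = 8.52e-11), the receptors Fzd2 and Fzd9 fell by 1.17 ± 0.08 and 1.16 ± 0.12, and Fzd1 and the R-spondin Rspo3 rose by 1.08 ± 0.12 and 1.25 ± 0.10. Wnt5a was at -0.05 (adjusted p = 0.79). Of 37 other growth factor genes 14 rose and 10 fell. The EGF receptor ligand Ereg went from 20.9, 27.5 and 23.4 to 395, 469.6 and 386 CPM (4.13 ± 0.16, adjusted p = 1.05e-20), Fgf7 from 9.96, 12.7 and 10.5 to 31.6, 41.3 and 39.4 CPM (1.78 ± 0.14), and Gdnf and Vegfc rose by 3.39 ± 0.33 and 2.23 ± 0.26. Fgfr3, which restrains chondrocyte growth, fell by 0.76 ± 0.13.

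Stress, oxygen and lipid genes completed the early picture. Of 25 NRF2 targets and metal-binding genes 15 rose and 2 fell. The cystine importer Slc7a11 went from 19.1, 26.0 and 24.7 to 244, 236 and 232 CPM (3.36 ± 0.12, adjusted p = 5.04e-22), Txnrd1 and Gsr, which regenerate thioredoxin and glutathione, rose by 1.15 ± 0.07 and 1.21 ± 0.08, and Nfe2l2 (NRF2) itself by 0.92 ± 0.08. Its target Nqo1 was at -0.11 (adjusted p = 0.478). The zinc and iron importer Slc39a14 rose by 1.32 ± 0.09. In the hypoxia and glycolysis list 5 of 32 rose and 12 fell, and 7 fell without IL-1beta library b. The rises of this list were at about the 15.5% of all genes tested. Hif1a and Epas1, the oxygen-regulated factors, rose by 0.71 ± 0.06 and 0.89 ± 0.12, while Adm (adrenomedullin) and Bnip3 fell by 1.17 ± 0.20 and 0.62 ± 0.10 and Car9 was at 0.08 (adjusted p = 0.748). Of 22 sterol and lipid genes 2 rose (4 with only the 6 libraries fitted) and 7 fell (11 with totals scaling). The 2 that rose were a hydroxylase that turns cholesterol into an oxysterol and the enzyme that converts that oxysterol further: Ch25h stood at 0.375, 0.510 and 0.185 CPM in control libraries a, b and c and 29.5, 37.2 and 23.9 CPM in IL-1beta libraries a, b and c (6.43 ± 0.31, adjusted p = 7.02e-18), and Cyp7b1 rose by 3.06 ± 0.14. The lipid synthesis factor Srebf1 and the desaturase Scd2 fell by 0.75 ± 0.10 and 0.78 ± 0.08. Of 20 integrated and endoplasmic reticulum stress genes 4 rose and none fell (5 fell with totals scaling), and Ddit3 (CHOP) was at -0.15 (adjusted p = 0.258).

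Beyond the groups described so far, the largest rises and falls were picked by size among genes with a mean of at least 1 CPM and groups that did not overlap. Among rises, the T-cell costimulator Icosl went from 0.417, 0.255 and 0.154 to 19.1, 16 and 11.8 CPM (5.72 ± 0.38, adjusted p = 2.1e-14). Slc26a9, a chloride transporter, had 1 count in the 3 controls and 383 with IL-1beta, a ratio of 452 with a counting interval of 80.7 to 1.791e+04. Among falls, the caveolar protein Cavin2 went from 4.50, 2.92 and 4.95 to 0.688, 0.786 and 1.10 CPM (-2.34 ± 0.35, adjusted p = 2.46e-06), the glycogen-targeting phosphatase subunit Ppp1r3c from 176, 163 and 148 to 46.9, 48.9 and 45.4 CPM (-1.78 ± 0.13, adjusted p = 1.21e-13) and the potassium channel subunit Kcne3 fell by 2.23 ± 0.26. Fam198a had the largest fall of this selection, from 2.33, 1.6 and 1.79 to 0.172, 0.295 and 0.470 CPM (-2.69 ± 0.38, adjusted p = 8.3e-07). By share of all counts the most changed gene was the noncoding RNA Gm26917, with means of 1.70% in controls and 2.41% with IL-1beta. Most of this was library a, at 3.19% against 2.07% and 1.96% in b and c, and its fold change of 0.61 ± 0.15 was 0.34 and not called without library a.

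Marker lists of other cell types were uneven in how many members were called. Among 8 neural and glial markers 4 rose and 1 fell, with sums of 89.7 to 104 CPM in controls and 79.7 to 93.6 CPM with IL-1beta. Of 8 adipocyte markers 5 fell and 1 rose (median -1.25). All treated libraries lay below all controls for 3 of them and above for 1. Their summed level was nevertheless 419 to 473 CPM in controls and 495 to 735 CPM with IL-1beta. Any part of adipocytes in the fall of the lipid genes above was not tested. The adipokine Adipoq went from 7.73, 3.86 and 7.60 to 1.38, 2.10 and 4.31 CPM and the lipid droplet protein Plin1 from 12.1, 6.78 and 15.6 to 6.94, 4.03 and 6.43 CPM, while Fabp4 rose by 0.51 ± 0.16. Of 8 fibroblast and tenocyte markers only the tendon factor Scx changed (-0.89 ± 0.09). None of 8 pluripotent stem cell markers and 2 of 8 endothelial markers reached the filter, and neither of the latter was called.

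The response at 4 h was then set against the same cytokine at 12, 24 and 72 h, each with its own 3 controls, so that no library is shared. Of the 644 genes at least 2-fold higher at 4 h, 423 were also called higher at 12 h, 437 at 24 h and 374 at 72 h, and 1, 6 and 27 were called lower. Of the 499 at least 2-fold lower, 211, 237 and 194 were called lower again, and 4, 6 and 49 were called higher. Beside these, of all 18857 genes tested 2737, 3203 and 3630 were called higher at 12, 24 and 72 h. Those called lower numbered 2836, 2939 and 3706. The medians of the rising set were 1.59 at 4 h and 1.19, 1.31 and 1.2 later, and those of the falling set -1.32 and -0.76, -0.78 and -0.52, where the choice of genes at 4 h favours large values at that time. A test of the difference between effects found 1176 genes (6.24%) more positive at 4 h than at 12 h and 1196 (6.34%) more negative. Against 24 h these were 1780 (9.44%) and 2073 (11%), and against 72 h 2823 (15%) and 2952 (15.7%). With totals scaling the 12 h counts became 597 and 2221. Apart from the effect, the 8 libraries of 0 h (a and c) and of both 4 h groups lay wholly above the 30 other mRNA libraries for 10 genes and wholly below for 24, with Gm10800 at 0.476 to 5.22 CPM against 363 to 2068 CPM. The 3 TNF-alpha libraries of 4 h are among the 30, so the split does not follow time alone. Both 4 h groups compared here lie on 1 side of it and the control and IL-1beta groups of 12, 24 and 72 h on the other, so that in these comparisons the split and the time cannot be told apart.

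For several genes that rose at 4 h the effect was smaller by 72 h. Lif, at 5.61 ± 0.24 at 4 h, was at 3.83, 2.42 and 1.09 at 12, 24 and 72 h (difference of 4 h minus 72 h 4.52 ± 0.43, adjusted p = 2.96e-10). Adamts1 was at 1.64 ± 0.12 and then at -0.50, -0.58 and 0.14 (4 h minus 12 h 2.14 ± 0.17, adjusted p = 2.25e-11). Has1 was at 1.85 ± 0.13 and then at 0.75, -0.06 and -0.29 (4 h minus 24 h 1.91 ± 0.20, adjusted p = 1.42e-08). Neither gene was called higher at 24 h. Nfkb1 was at 1.43 ± 0.06 and then at 0.47, 0.50 and 0.47 (4 h minus 12 h 0.95 ± 0.08, adjusted p = 9.38e-11), and Icam1 at 3.64 ± 0.10 and then at 2.75, 2.07 and 0.42 (4 h minus 72 h 3.21 ± 0.14, adjusted p = 1.31e-18). Ptgs2 and Csf1 were raised at 12 h too and less so later: Ptgs2 was at 2.28 ± 0.15 and then at 2.31, 0.69 and -0.45 (4 h minus 24 h 1.59 ± 0.21, adjusted p = 6.26e-07), and Csf1 at 2.06 ± 0.12 and then at 3.31, 1.35 and 0.00 (4 h minus 72 h 2.07 ± 0.17, adjusted p = 6.11e-12). Il1rl1 was largest at 12 h and no longer higher at 72 h, at 5.51, 2.36 and -0.56 after 4.62 ± 0.21 (4 h minus 72 h 5.18 ± 0.35, adjusted p = 8.69e-14).

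Other genes had larger effects at later times. Mmp3 was at 3.02 ± 0.13 and then at 4.15, 4.88 and 6.12 (4 h minus 72 h -3.11 ± 0.18, adjusted p = 2.57e-15), and Mmp13 at 1.6 ± 0.14 and then at 2.10, 3.16 and 4.92 (4 h minus 72 h -3.31 ± 0.20, adjusted p = 3.8e-15). Saa3 was at 2.37 ± 0.34 and then at 3.72, 5.39 and 8.95 (4 h minus 72 h -6.58 ± 0.50, adjusted p = 1.11e-12). The acute-phase list followed it, with medians of 0.83 at 4 h and 2.04, 3.11 and 4.65 later. Hmox1, haem oxygenase-1, stood out at 12 h, at 3.66, 0.99 and -0.32 after 0.68 ± 0.10 (4 h minus 12 h -2.99 ± 0.15, adjusted p = 2.7e-16). For the cartilage matrix list the medians went from -0.01 at 4 h to -0.31, -1.11 and -2.04, and Acan from -0.01 to -0.07, -1.92 and -3.05 (4 h minus 72 h 3.04 ± 0.19, adjusted p = 1.68e-14). The sulfate transporter Slc26a2, in contrast, was already at -1.35 and went to -1.46, -2.01 and -1.99 (4 h minus 72 h 0.64 ± 0.16, adjusted p = 0.00245). Cxcl1 was somewhat larger later, at 5.14 ± 0.18 and then 6.01, 6.13 and 5.90, and its differences from 4 h had adjusted p of 0.0111, 0.00226 and 0.0127. Nos2 dipped at 12 h, at 3.44, 4.80 and 6.12 after 5.55 ± 0.23 (4 h minus 12 h 2.11 ± 0.29, adjusted p = 2.57e-06).

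**Figure D5:**
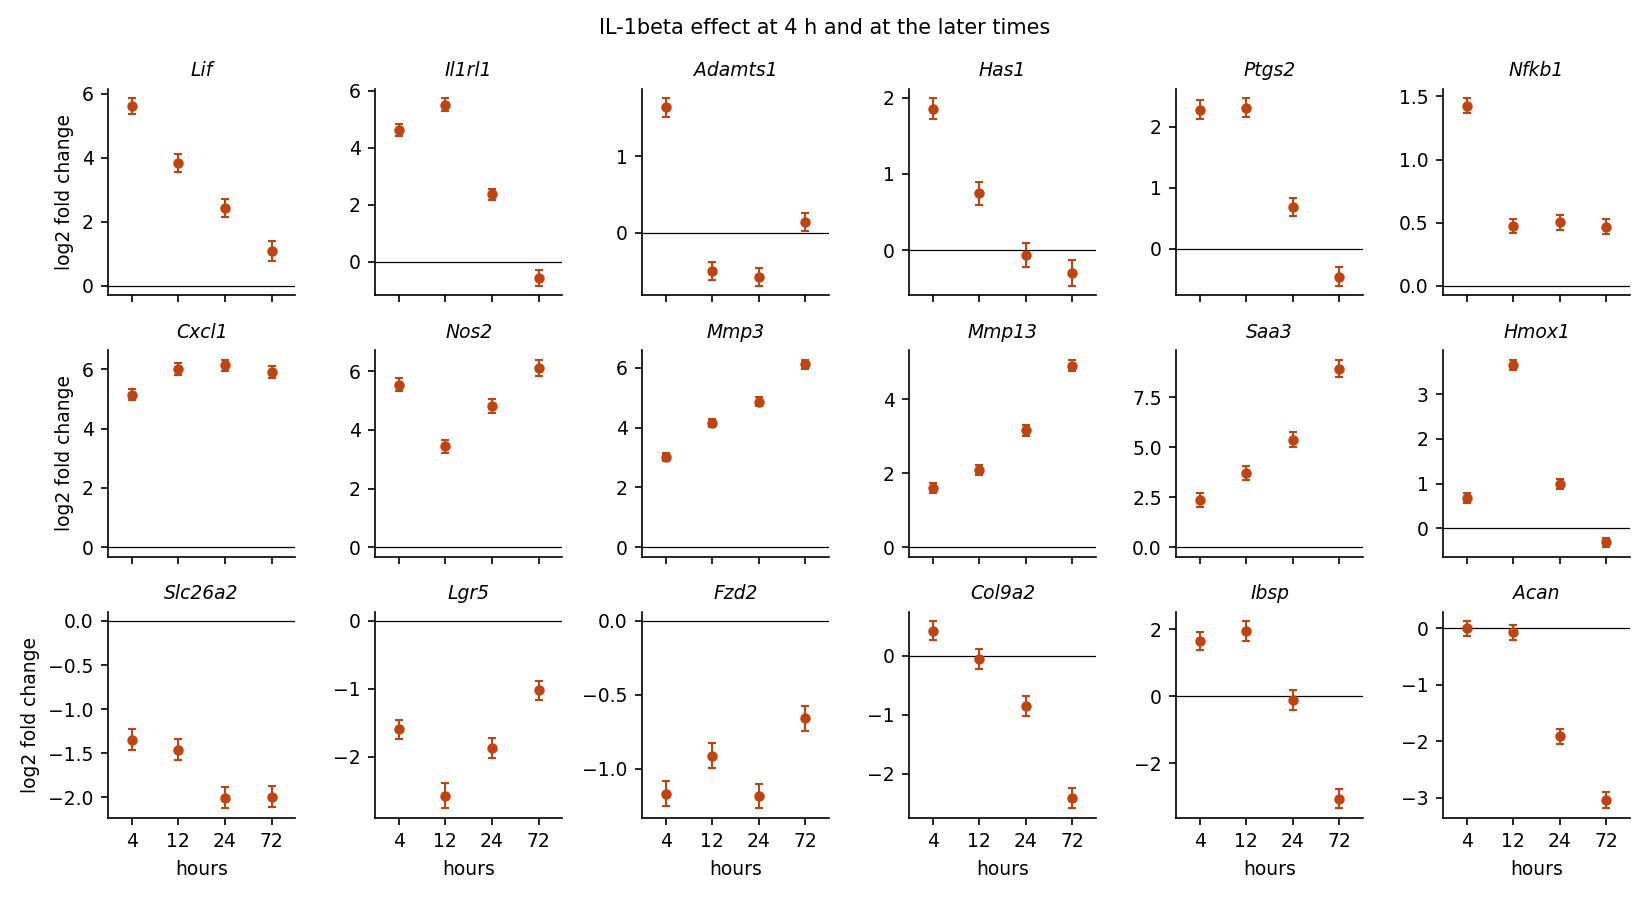
Log2 fold change of IL-1beta over the control of the same time at 4, 12, 24 and 72 h for 18 genes (points, with bars of 1 standard error; 3 libraries per group at each time; vertical axes differ between panels). Lif, Adamts1, Has1 and Nfkb1 are highest at 4 h, Mmp3, Mmp13 and Saa3 climb to 72 h, and Acan is near 0 at 4 h and below 0 later.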

How the data were processed

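Messenger RNA was sequenced on an Illumina HiSeq3000 after ribosomal RNA removal with Ribo-Zero Gold, from RNA isolated with a Norgen kit, per the labels' protocols. Per the submitters' processing notes Trimmomatic, cutadapt, STAR and featureCounts were used with the mm10 build; the settings, the versions and the handling of strand are not stated there. The deposited mRNA table holds raw counts per gene that the authors made, on 52459 named genes, with 1 column of gene lengths and 39 of libraries. In the last 2 library columns (72 h IL-1beta b and c) the values are also the authors' deposited counts. A further 2199 lines without a gene name (15490 counts) were left out.

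Tests used edgeR 4.0.16 in R 4.3.3 (filterByExpr by group, TMM factors of 0.864 to 1.12, quasi-likelihood F test with Benjamini-Hochberg adjustment) in 1 model of 38 libraries with 1 coefficient per group. Control 0 h library b was left out: it held 220180 counts and its highest correlation with any other library was 0.189. The filter kept 18857 genes with 99.905% of counts; the common biological coefficient of variation was 8.26%. Standard errors were taken from the log2 fold change and the F statistic. Counting intervals are exact, cover counting error only and are given where a group had 3 counts or fewer. The script was tested on simulated data. CPM per kilobase use the deposited lengths. Promoters and motifs come from the RefSeq table, whose starts may not be the ones used here. Genes were named by rule: the 15 largest called changes in each direction with a mean of at least 1 CPM and groups apart, up to 8 called members of each of 45 lists (1042 genes, 952 tested) by smallest p with the first 3 members of each, the 5 largest differences from each later time, and the 5 largest changes in share of counts. A further number of list members are named for their role, chosen after their values were seen. The members of the lists, the rules and the comparison were chosen with earlier results of these data known. Alternatives were DESeq2 1.42.0, its size factors in edgeR, scaling by totals, no filter, the library letter as a block, only the libraries compared, all 39 mRNA libraries, and each library left out in turn. miRNA and TNF-alpha effects and some genes that the rule named are not reported here.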

Additional observations from a re-analysis of the deposited data

Results flagged for a closer look

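Among the named genes, 7 had effects of IL-1beta that were called both at 4 h and at a later time, with opposite signs, and that differed between the times by at least 2.5 on the log2 scale, a difference that passed edgeR's quasi-likelihood test of the 2 effects. 5 of these genes rose early and stood below control late. Ibsp, bone sialoprotein, stood at 1.64 at 4 h and -3.06 at 72 h (difference 4.69 ± 0.40, adjusted p = 2.21e-11). Ptgs2, the inducible cyclooxygenase, stood at 2.28 at 4 h and -0.45 at 72 h (difference 2.73 ± 0.21, adjusted p = 2.47e-12), and Socs2, a feedback inhibitor of cytokine and growth hormone signalling, at 0.87 at 4 h and -1.67 at 72 h (difference 2.54 ± 0.19, adjusted p = 6.02e-13). The type IX collagen chains Col9a2 and Col9a3 stood at 0.42 at 4 h and -2.41 at 72 h and at 0.42 at 4 h and -2.58 at 72 h, with differences of 2.83 ± 0.24, adjusted p = 1.39e-11 and 3.0 ± 0.24, adjusted p = 3.87e-12; their early rise is lost without IL-1beta library a, at 0.22 and 0.18, and without control library a or b.

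The other 2 genes fell early and stood above control late. Fmo1, a flavin-containing monooxygenase, stood at -0.84 at 4 h and 2.78 at 24 h (difference -3.62 ± 0.31, adjusted p = 2.27e-10) and at 5.14 at 72 h (difference -5.98 ± 0.32, adjusted p = 2.15e-16); its early fall, at -0.65, is not called without control library a. Cavin2, a coat protein of caveolae, stood at -2.34 at 4 h and 1.14 at 72 h (difference -3.47 ± 0.44, adjusted p = 9.5e-08). In all of these the time compared cannot be told apart from the split that sets the control and IL-1beta libraries of 4 h apart from those of later times.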

How the results depend on the processing

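No named gene reversed its direction under any alternative where it was called in the main fit or in that alternative. Changes of sign in genes called in neither were not counted. Of 374 named genes called, 255 kept their call under all alternatives. With libraries scaled by totals alone 1943 genes were higher and 4890 lower; 597 had effects higher and 2221 lower at 4 h than at 12 h, and 1161 higher at 4 h than at 24 h. With all 39 mRNA libraries, which add the shallow 0 h control, 1397 were higher and 1451 lower, 323 at least 2-fold lower, and the differences became 210 and 346 (12 h), 427 and 618 (24 h) and 1173 and 1356 (72 h). Of the 1143 at least 2-fold calls 98.2% were kept with totals, 99.7% with DESeq2 factors in edgeR, 92.4% with DESeq2, 76.9% with all 39 libraries and 75.7% without IL-1beta library b. Leaving out each library in turn gave 2358 to 2837 higher and 2252 to 2876 lower genes, 584 to 678 at least 2-fold higher and 386 to 498 lower, and differences of 955 to 1195 and 874 to 1112 (12 h), 1415 to 1864 and 1397 to 1904 (24 h) and 2504 to 3029 and 2320 to 2822 (72 h); with 1 library out, 2 remain in its group. The replicate block by library letter gave 2850 higher and 3174 lower genes and 647 and 481 at least 2-fold; same-lettered libraries of the 2 groups correlated in their deviations at -0.106, 0.0148 and -0.0816, so the letters are not shown to pair them. With only the 6 libraries compared in the fit, 2570 genes were higher and 2773 lower, 573 and 398 of them at least 2-fold. Of 90 counts of list members 20 moved by over 1.5 times with totals scaling, 50 with all 39 libraries and 14 without the filter on low counts. With all 39 libraries 105 of 431 named genes lost their call, the most of any alternative. Depth limits the low genes: control libraries held 1 to 3 counts of Slc26a9, Nlrp3 and Tnf. The wide intervals given for their ratios cover counting error only and leave out the spread between libraries.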

Other observations

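Genes of solute transport and of the clock also changed at 4 h. Of 20 tested amino acid and other solute carriers 11 rose and 5 fell (3 fell without control library b). The histidine and peptide transporter Slc15a3 went from 0.521, 0.291 and 0.371 to 9.75, 8.61 and 7.60 CPM (4.37 ± 0.25, adjusted p = 7.43e-16). Slc6a14, an amino acid importer, rose by 6.91 ± 0.39, and by 6.13 without control library a and 8.02 without control library b. Of 19 clock genes 5 rose and 8 fell, and 3 rose without control library c and 2 with totals scaling. Nfil3, a repressor of D-box genes, went from 16.7, 19.2 and 20.1 to 35.4, 40.4 and 35 CPM (0.99 ± 0.11, adjusted p = 2.81e-09), and the D-box activators Dbp and Hlf fell, Dbp from 30.5, 30.2 and 26.1 to 15.3, 16.3 and 17.0 CPM (-0.84 ± 0.11, adjusted p = 8.01e-08) and Hlf by 1.34 ± 0.25. The CLOCK relative Npas2 rose by 1.28 ± 0.18, Arntl (BMAL1) fell by 0.31 ± 0.06, and Clock, Nr1d1 and Per1 were at 0.10, 0.00 and 0.05 (adjusted p = 0.25, 0.992 and 0.731). Of 26 cell cycle genes 1 rose and 5 fell, beside 15.5% and 17.2% of all genes tested; 2 fell without IL-1beta library c, 3 without IL-1beta library a or control library b and 9 with totals scaling. The CDK inhibitor Cdkn1b (p27) fell by 0.56 ± 0.07, while the proliferation markers Mki67, Top2a and Cdk1 were at -0.05, 0.06 and -0.19 (adjusted p = 0.826, 0.756 and 0.311).

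Some transcripts that host miRNAs changed as well. Of 22 tested host genes 6 rose and 4 fell (10 fell with totals scaling), the falls at about the 17.2% of all genes tested. Mir155hg, which carries miR-155, stood at 0.292, 0.146 and 0.309 CPM in control libraries a, b and c and 0.516, 0.819 and 0.862 CPM in IL-1beta libraries a, b and c (1.52 ± 0.36, adjusted p = 0.00109), and Mir17hg, host of the miR-17-92 cluster, went from 1.85, 2.11 and 1.92 to 3.67, 3.90 and 4.00 CPM (0.98 ± 0.16, adjusted p = 6.02e-06). AA467197, host of miR-147, rose by 1.73 ± 0.21 and Mir22hg by 0.64 ± 0.09. Dnm3os, host of miR-199a and miR-214, fell by 0.65 ± 0.12 and Mir99ahg by 0.39 ± 0.08. Host RNA levels do not give those of the mature miRNAs, which are not analysed here. Of 12 Notch genes 2 rose and 3 fell, beside 15.5% and 17.2% of all genes tested. The ligand Jag1 rose by 0.70 ± 0.09 and Notch1 was at 0.16 (adjusted p = 0.284).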
